A study of Mus musculus with 12 samples.

Results

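Slit1, Slit2 and Slit3, Robo1, Robo2 and Robo3, Dcc, Ntn1, Unc5c and Unc5d were followed through all 25 cell clusters of the embryonic mouse cortex. They were chosen as named families of axon guidance genes, by a rule that sets no measured value but with earlier results of these data known, and make up 10 of the 23513 genes in the tables. Single nucleus RNA sequencing had been done on the cortex of C57BL/6J embryos, given as embryonic day 14 in the labels, whose dams had received saline or ethanol (EtOH) by 1 intraperitoneal injection a day from neurulation until the day before collection. The 5 saline embryos came from 2 dams (S1 and S2) and the 6 EtOH embryos from another 2 (E1 and E2), with no genetic change in any group. Embryos are named here by dam and number (S1-1, S1-2, S2-1, S2-2 and S2-4 for saline, E1-1, E1-2 and E2-1 to E2-4 for EtOH). Libraries of S1 and E1 embryos were made as batch 1 and those of S2 and E2 embryos as batch 2. Only 2 dams received each treatment, so the p-values below treat littermates as independent samples. A further saline embryo of dam S2 is not analysed here.

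Slits are secreted proteins that repel growing axons and migrating neurons by binding Robo receptors, and they are best known for keeping axons that have crossed the midline from crossing again. Netrin-1, the product of Ntn1, attracts axons through its receptor DCC and repels them through UNC5 receptors, alone or together with DCC. In the developing cortex, Robo receptors also act in radial glia and intermediate progenitors and in the tangential migration of interneurons, and Unc5d marks young neurons that pause in the subventricular zone on their way to the cortical plate.

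Total counts of unique molecular identifiers (UMIs) ran from 44017566 to 83061737 in the saline embryos and from 14078316 to 38034349 in the EtOH embryos, and the median UMIs per nucleus from 6325 to 9051 and from 4071.5 to 6911, so the EtOH values carry more counting error. Saline embryo S2-4 stood apart from the other saline embryos. Over 10922 genes its deviations from the mean over embryos correlated at 0.23 to 0.55 with those of the EtOH embryos and at -0.64 to -0.25 with those of the other saline embryos, and its median of 6325 UMIs per nucleus lay in the EtOH range. Calls and counts of calls are therefore also given without it. S2-4 was set apart for its likeness to the EtOH embryos, so leaving it out tends to widen the gap between the groups. Over all genes and clusters, 0.35% of tests were called lower with all embryos and 2.61% without S2-4. Calls gained without it are therefore no separate support. Of 50226 distinct nucleus barcodes, 314 occurred in more than 1 library. Class markers separated the progenitor classes and only in part the neuronal ones. Hes1 was at 47.0 to 99.4 CPM (counts in each 1000000 UMIs, summed over the nuclei of an embryo and cluster) in the radial glial cell (RGC) clusters and at most 26.3 CPM elsewhere, and Eomes was at 202 to 414 CPM in the 2 intermediate progenitor (IPC) clusters and at most 67.4 CPM elsewhere. For Neurod2 the PN range, from 80.2 to 294 CPM, took in both IPC clusters (92.5 and 106 CPM). Gad2 ran from 608 to 1248 CPM over interneuron clusters and reached 1172 CPM in 1 cluster outside the 4 classes. The summed cortical hem markers were at 61.6 to 267 CPM over all nuclei of saline embryos and 18.3 to 117 CPM of EtOH embryos.

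The promoters of a ligand and of a receptor are given first. Both are the 250 bases upstream of a RefSeq transcript start in GRCm38.p6, written 5′ to 3′ on the strand of the gene, with capitals for the GC box (GGGCGG, searched on both strands). Slit2 is shown because it was the gene called lower after EtOH in the most clusters, and Robo2 as a receptor whose RefSeq start meets the GENCODE start of the gene.
Slit2, chr5:47982905-47983154 (+): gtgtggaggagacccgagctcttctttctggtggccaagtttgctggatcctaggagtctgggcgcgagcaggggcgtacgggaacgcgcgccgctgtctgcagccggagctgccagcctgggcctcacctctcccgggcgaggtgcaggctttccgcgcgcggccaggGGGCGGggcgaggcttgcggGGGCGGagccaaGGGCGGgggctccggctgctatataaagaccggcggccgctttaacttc
Robo2, chr16:74411826-74412075 (-): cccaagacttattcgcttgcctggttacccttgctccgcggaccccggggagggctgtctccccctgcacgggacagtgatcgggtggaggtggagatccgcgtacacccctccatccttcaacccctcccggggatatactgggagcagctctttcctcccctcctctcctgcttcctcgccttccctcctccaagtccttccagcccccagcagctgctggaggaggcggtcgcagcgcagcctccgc
The last 17 bases of the Slit2 window lie inside the GENCODE gene. It was 69.6% G and C, with 25 CpG dinucleotides, 3 GC boxes and 1 TATAAA. The Robo2 window shown was 65.6% G and C, with 14 CpG dinucleotides, no GC box and no TATAAA. Windows of other RefSeq starts of Robo2, chr16:75447294-75447543 and chr16:75092771-75093020, were 53.2% and 44.8% G and C. They held 8 and 4 CpG dinucleotides. Of 32851 RefSeq promoters of the same length, 32.7% held a GC box and 12.4% a TATAAA on either strand, with a median of 52.4% G and C and 6 CpG dinucleotides. RefSeq promoters were matched for 6 of the 10 genes.

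The guidance genes are long. In GENCODE M21 (GRCm38), 9 of them lay above the 92nd percentile of gene length among 23125 matched genes, from Slit1 (chromosome 19, 41600257 to 41743665, minus strand, 143 kb) to Dcc (chromosome 18, 71253634 to 72351069, minus strand, 1097 kb). Robo3 (chromosome 9, 37415669 to 37433246, minus strand) spans 17.6 kb and lay at percentile 46.8. Nuclear RNA holds many unspliced transcripts, and the sources used here do not say whether intronic reads were counted, so levels are compared between clusters and embryos of 1 gene and not between genes.

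Slit2 was highest in some of the radial glial clusters. Slit1 and Slit3 were each highest in subcortical projection neurons, of the rostral and the caudal cluster in turn. Slit1 (21.8-fold from its lowest to its highest cluster) was highest in Cluster (Cl) 4, rostral subcortical projection neurons (PN), at 364 ± 42.4 CPM (SD, n = 11 embryos). Its next clusters were Cl 16, caudal subcortical PN, at 296 ± 98.1, Cl 23, migrating interneurons, at 278 ± 52.0, and Cl 3, interneuron precursors, at 278 ± 33.1 CPM. These 4 clusters did not differ from their neighbours in the order by more than the larger SD, and the next gap, to 199.5 ± 27.1 CPM in Cl 10, did. The lowest level was 16.8 ± 9.21 CPM in Cl 9, early PN. Slit1 UMIs were seen in 85.7% of Cl 4 nuclei (median depth 9235.5 UMIs) and in 8.18% of Cl 9 nuclei (5566 UMIs). With every nucleus thinned to 2000 UMIs the shares were 46.4% and 3.28%.

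Slit2 (chromosome 5, 47983138 to 48307733, plus strand) was highest in a part of the progenitor clusters. Cl 20, RGC 2, held 2479 ± 576 CPM (n = 9 embryos with at least 10 nuclei), Cl 21, cortical hem RGC, 1719 ± 310 (n = 10) and Cl 2, RGC 1, 1059 ± 198 (n = 11). Each of these levels differed from the next in order by more than the larger SD. All remaining clusters lay at or below 595 CPM, and the lowest, Cl 23, held 106 ± 72.8 CPM. Thinned to 2000 UMIs, 84.2% of nuclei in Cl 20 and 15.8% in Cl 23 had a Slit2 UMI, against 95.9% and 32.8% before thinning, with median depths of 7174 and 5900 UMIs.

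Slit3 (chromosome 11, 35121224 to 35708507, plus strand) had the widest fold range of cluster means among the ligands, 209-fold. Cl 16, caudal subcortical PN, held 4098 ± 454 CPM and 35.1% of all Slit3 UMIs. Cl 25, PN 3, followed at 2665 ± 479 CPM (n = 7 embryos) and cortical hem RGC at 1072 ± 209 CPM, each gap being larger than the SDs. After thinning, 98.1% of Cl 16 nuclei and 96.8% of Cl 25 nuclei had a Slit3 UMI, and 3.71% of Cl 23 nuclei. Slit2 and Slit3 were thus both found in cortical hem RGC, and the projection neuron clusters that held most Slit3 were at 499 and 187 CPM for Slit2.

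Ntn1 (chromosome 11, 68209364 to 68400823, minus strand) was highest in interneuron precursors, Cl 3, at 426 ± 51.7 CPM, where 35.2% of its UMIs lay. Cl 18, Int 4, held 340 ± 86.2 CPM, Cl 11, striatal interneurons, 312 ± 41.1 and Cl 20 284 ± 205. None of the gaps between neighbouring clusters was larger than the SDs. Among the 8 PN clusters no mean was above 13.2 CPM, and thinned nuclei with a Ntn1 UMI made up 42.3% of Cl 3 and 1.68% of callosal PN, Cl 1.

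**Figure D1:**
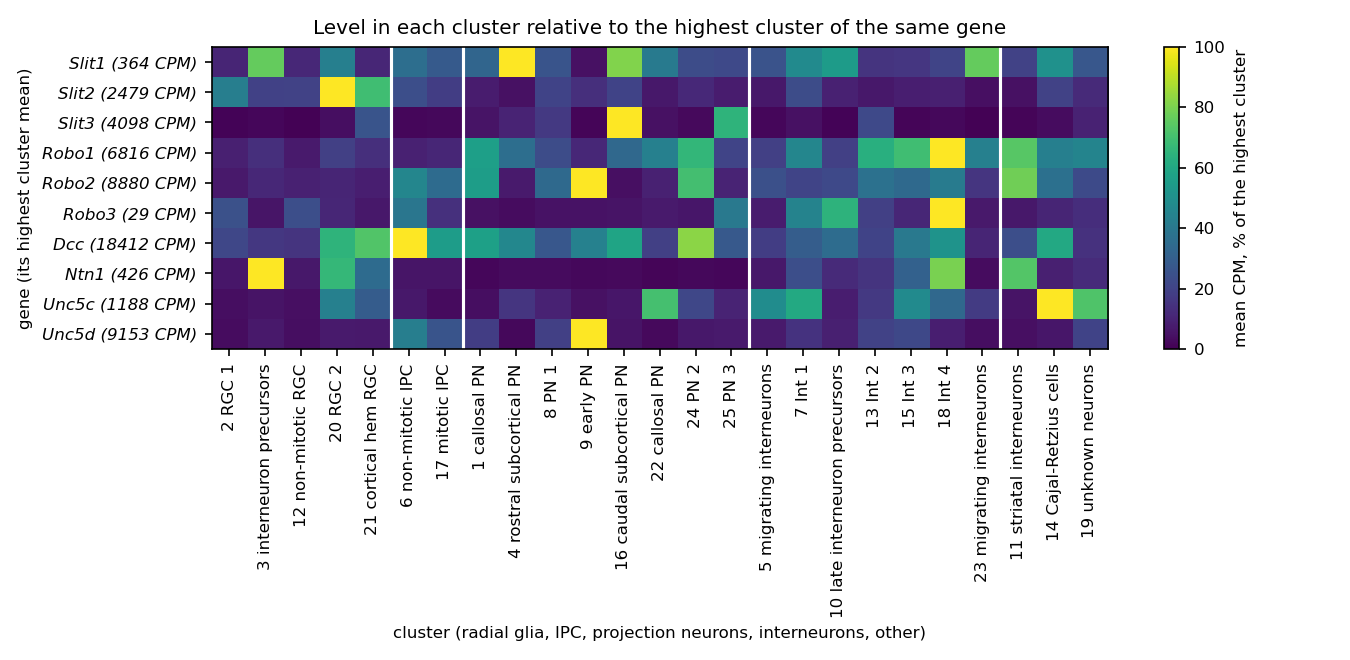
Mean CPM of each gene in each of the 25 clusters over embryos with at least 10 nuclei, as a percent of the highest cluster of the same gene, whose CPM is given beside the gene name. White lines divide radial glia, IPC, projection neurons, interneurons and other clusters; Slit2 is brightest in RGC 2, Slit3 in caudal subcortical PN, Robo2 and Unc5d in early PN and Dcc in non-mitotic IPC.

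Robo1 and Robo2 were low in all RGC clusters and differed in where they were highest. Robo1 (chromosome 16, 72308306 to 73046095, plus strand) was at 6816 ± 766 CPM in Cl 18, Int 4, at 5057 ± 377 in striatal interneurons, Cl 11, and at 4729.9 ± 872 in Cl 15, Int 3. In the 5 RGC clusters it lay between 490 and 1285 CPM. Robo2 (chromosome 16, 73891839 to 74411825, minus strand) was at 8880 ± 862 CPM in early PN, Cl 9, at 6958 ± 545 in Cl 11 and at 6231 ± 1145 in Cl 24, PN 2 (n = 10). Its lowest level was 363 ± 207 CPM in Cl 16, the cluster with the most Slit3. For both receptors the step from the first to the second cluster was larger than the SDs. Robo3 (which in spinal commissural neurons counteracts Slit repulsion) was near the floor of the assay everywhere, with 28.7 ± 18.6 CPM in Cl 18 and 0.919 CPM in Cl 4, and a UMI in 4.46% of thinned Cl 18 nuclei and 0.181% of thinned Cl 4 nuclei.

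In callosal PN, Robo1 and Robo2 were detected together about as often as their separate shares give. In thinned nuclei of Cl 1, 86.6% had a Robo1 UMI, 86.9% a Robo2 UMI and 75.1% both, against a product of 75.2%. In Int 4, Cl 18, 91.8% had a Robo1 UMI, 81.8% a Robo2 UMI and 76.8% both, against a product of 75.1%. These are shares of nuclei at 1 fixed depth and describe the pooled nuclei of 11 embryos.

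Dcc was found in every cluster, with the smallest range of the 10 genes, 9.61-fold. Non-mitotic IPC, Cl 6, held 18412.5 ± 3647 CPM, PN 2, Cl 24, 15220.5 ± 5714 (n = 10) and cortical hem RGC 13439 ± 3474 (n = 10). No gap between neighbouring clusters was larger than the SDs, and after thinning Cl 24 was first. The lowest cluster was Cl 23 at 1915 ± 1659 CPM. A Dcc UMI was found in 99.4% of thinned Cl 6 nuclei and 73.3% of thinned Cl 23 nuclei.

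The UNC5 receptors did not share a pattern. Unc5c (chromosome 3, 141465216 to 141834924, plus strand) was highest in Cajal-Retzius cells, Cl 14, at 1188 ± 560 CPM, then in unknown neurons, Cl 19, at 859 ± 254 and in Cl 22, callosal PN, at 835 ± 309 CPM, with no gap larger than the SDs. Unc5d (chromosome 8, 28646717 to 29219636, minus strand) was at 9153 ± 1649 CPM in early PN, at 3915 ± 907 in non-mitotic IPC and at 2376 ± 594 in mitotic IPC, Cl 17, each step being larger than the SDs, and at 208 CPM in Cl 4. After thinning, 99.5% of early PN and 19.2% of Cl 4 nuclei had an Unc5d UMI. The genes Gm15688 and Gm15689 lie within Unc5c on the opposite strand and 4930518C09Rik within Slit2, so reads could be split between them if strand was not used.

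Of the excitatory clusters, 6 were set in the order from radial glia through IPC to neurons. Slit2 went from 1059 CPM in RGC 1 to 453 in mitotic IPC, 595 in non-mitotic IPC, 336 in early PN, 193 in callosal PN and 111 in rostral subcortical PN. Over the same clusters Dcc went from 3928 CPM in RGC 1 to 18412.5 in non-mitotic IPC and 8095 in early PN, Robo2 and Unc5d were highest in early PN, and Robo1 stayed at 589 to 768 CPM until early PN and was at 3853 CPM in callosal PN. Rostral subcortical PN were back near RGC 1 for Robo2 (643 against 623 CPM) and below it for Unc5d (208 against 318 CPM). Outside these 6 clusters, Slit2 was at 498 CPM in PN 1 and 499 CPM in caudal subcortical PN, above early PN and mitotic IPC. The order is set by cluster names and is not a time course, and the clusters were built from all genes, these included, so no test was made between them.

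**Figure D2:**
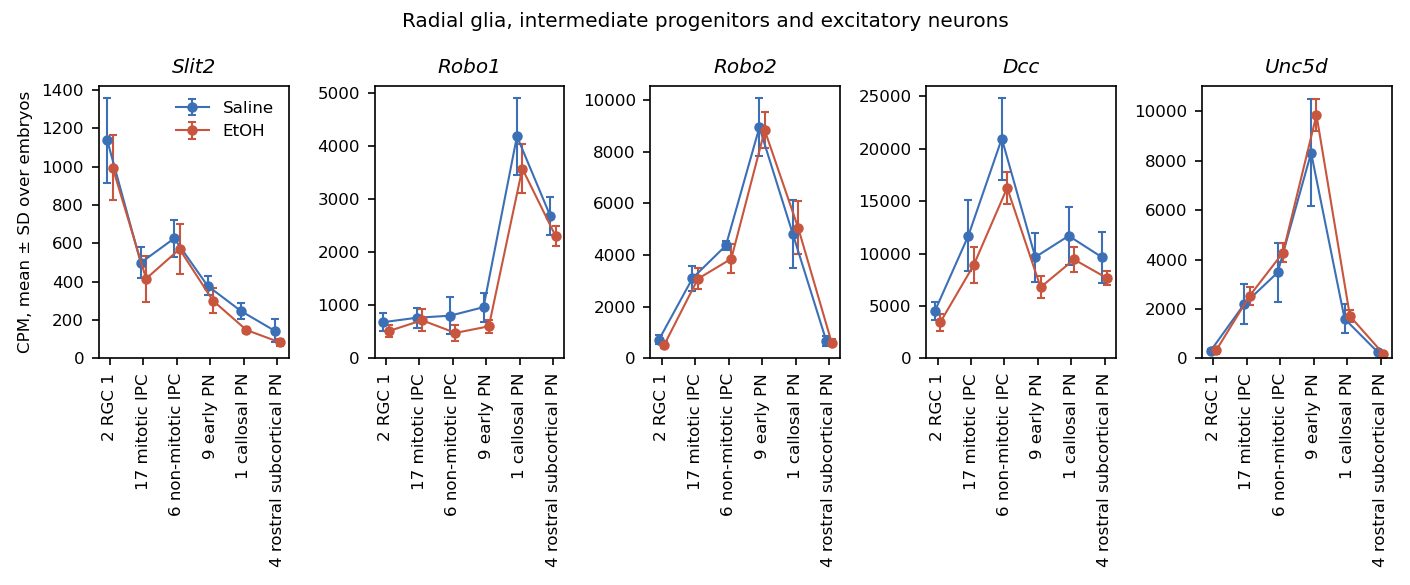
CPM of 5 guidance genes in 6 clusters, mean ± SD over saline (blue) and EtOH (red) embryos, on a linear axis for each gene. Slit2 is highest in RGC 1, Dcc in non-mitotic IPC, Robo2 and Unc5d in early PN and Robo1 in callosal PN in both groups.

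Over the 25 clusters, the gene most like Robo1 was AC154782.1 (Pearson r = 0.94 on log2(CPM + 1), 13646 genes compared), followed by Srgap1 (r = 0.91), which encodes a GTPase-activating protein that binds Robo receptors, and Psd2 (0.91). The closest gene to Dcc was 4933402D24Rik (r = 0.91), to Ntn1 Peg10 (0.91), to Slit2 Gm5089 (0.86), to Unc5c Ndfip1 (0.85) and to Slit3 Slc7a8 (0.83). For Unc5d, Robo2, Slit1 and Robo3 the closest genes were Adamtsl3 (0.80), Chn1 (0.77), which encodes a Rac GTPase-activating protein of axon guidance, Dpf3 (0.68) and Gfra1 (0.66). Among the 10 genes themselves the lowest correlation was between Slit2 and Robo1, r = -0.55. The points are clusters of the same libraries, so these correlations are descriptions.

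Next, EtOH embryos were compared with saline embryos, to see which guidance genes differed after prenatal alcohol exposure. Over all nuclei, Slit2 was the 1 guidance gene of 10 that was called lower, and none was called higher. It was at 457, 508, 592, 656 and 418 CPM in S1-1, S1-2, S2-1, S2-2 and S2-4, and at 368, 397, 267, 432, 365 and 436 CPM in E1-1, E1-2 and E2-1 to E2-4. Every saline embryo except S2-4 lay above all EtOH embryos. Slit2 fell by 0.55 on the log2 scale (SE 0.134, edgeR quasi-likelihood test, Benjamini-Hochberg adjusted p = 0.0212), and the log2 fold change was -0.64 without S2-4, -0.49 in batch 1 alone and -0.59 in batch 2 alone. The call was lost without S1-2 (-0.55) or S2-1 (-0.50), with counts summed per dam (-0.53), with nuclei thinned to 2000 UMIs (-0.48), with the replicate block (-0.54) and in batch 2 alone. Of all 18138 genes tested over all nuclei, 3.55% were called lower and 8.55% higher. The replicate block, which matches embryos of a batch by number only, called 0% of them. Batch 2 alone called 0.00544% of its genes lower. A call lost in those fits therefore says little about Slit2. With each cluster at the same weight the log2 ratio of Slit2 was -0.37. In bulk sums of this kind, fewer nuclei of a type and less RNA per nucleus cannot be told apart, and the clusters with the most Slit2 differed in share between embryos. RGC 2 made up 0.568% to 3.66% of saline nuclei and 0.0426% to 1.95% of EtOH nuclei, cortical hem RGC 0.748% to 4.64% and 0.0789% to 1.55%, and RGC 1 5.001% to 15.6% and 4.65% to 9.65%. The highest saline shares were those of S2-1 for RGC 2 and of S2-2 for cortical hem RGC and RGC 1. S2-1 had the lowest saline shares of cortical hem RGC and RGC 1. The part of these shares in the fall of Slit2 over all nuclei was not tested beyond the equal weighting.

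The other 9 genes were not called over all nuclei. Dcc was at 7439, 7685, 8822, 9242 and 6140 CPM in the saline embryos and 8003, 6460, 5383, 6329, 6015 and 6778 CPM in the EtOH embryos, in the order above. Its groups overlapped through S2-4 and E1-1. The log2 fold change of Dcc was -0.35 (SE 0.124, edgeR adjusted p = 0.0581), and without S2-4 it was -0.44 and passed the test. Robo1 was at 2366 ± 390 CPM in saline and 2118 ± 212 in EtOH embryos (log2 fold change -0.24, edgeR adjusted p = 0.166), and also passed without S2-4, at -0.34. Without S2-4, 6.38% of all genes were called lower and 16.6% higher. Robo2 had a log2 fold change of -0.12, Slit1 of -0.10, Ntn1 of -0.24 and Robo3, with 2.29 to 12.9 CPM in single embryos, of -0.51. Slit3, Unc5c and Unc5d had log2 fold changes of -0.0023, 0.0082 and 0.013 with SEs of 0.294, 0.276 and 0.164, which leave room for a change of either sign. DESeq2 called 2 of the 10 genes lower over all nuclei and 0 higher, beside 4.74% and 10.1% of all genes.

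**Figure D3:**
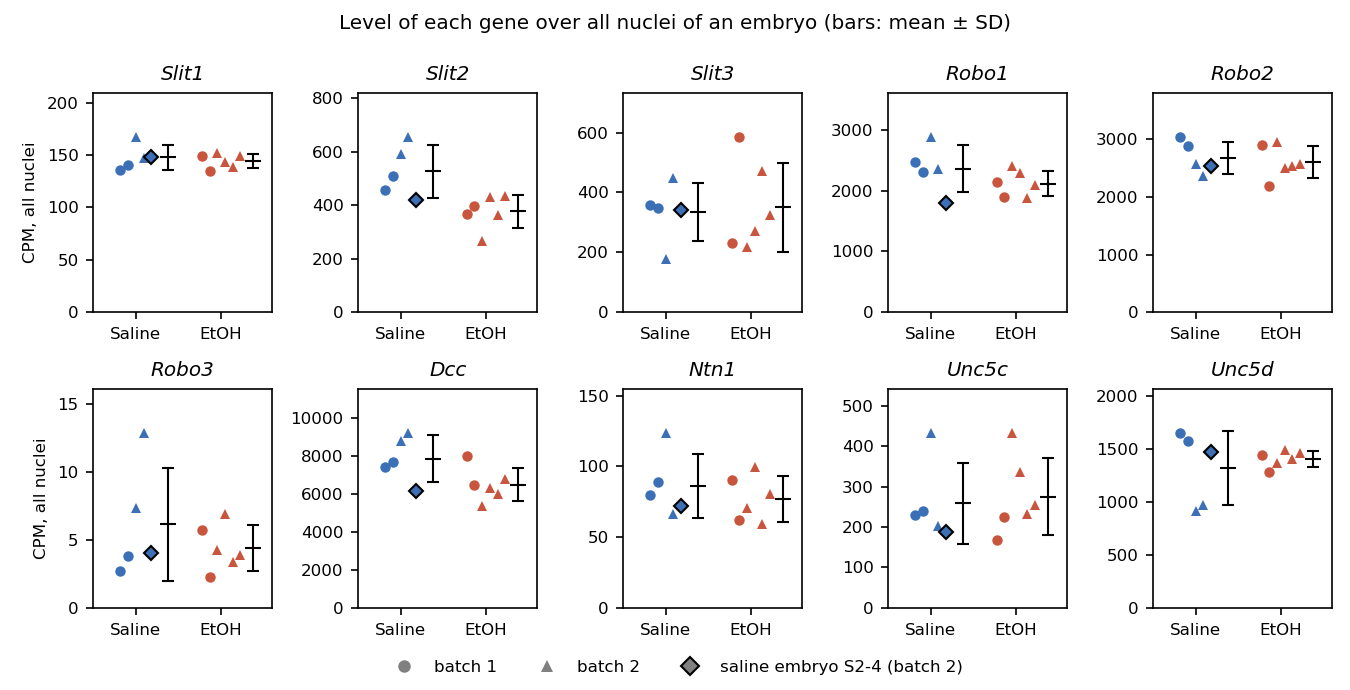
CPM of each gene over all nuclei of an embryo, with circles for batch 1, triangles for batch 2, a black-edged diamond for saline embryo S2-4, and mean ± SD beside each group of 5 saline and 6 EtOH embryos. Slit2 is at 418 to 656 CPM in saline and 267 to 436 CPM in EtOH embryos, and saline embryo S2-4 is the lowest saline value for Slit2, Robo1 and Dcc.

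Within clusters, 225 of the 250 pairs of gene and cluster had enough counts to be tested, and 6 were called lower after EtOH and 0 higher (edgeR, adjusted p under 0.05 and a log2 fold change beyond 0.32 in either direction). Over all genes and clusters, 0.35% of 217253 tests were called lower and 0.442% higher, against 6 of 225 pairs here. At an unadjusted p under 0.05, 50 of the 225 pairs were lower and 1 was higher, and 17.4% of all tests passed that mark. The median log2 fold change was -0.24 over the guidance gene pairs, and the medians over all genes of a cluster ran from -0.01 to 0.01. DESeq2 called 21 pairs lower and 0 higher, beside 0.949% and 1.65% of all tests. Without S2-4, 33 pairs were called lower and 0 higher, beside 2.61% and 6.17% of all tests, and without S1-1 only 2 pairs were called, beside 0.0229% of all tests called lower. The untested pairs were 20 of Robo3, 4 of Ntn1 and 1 of Slit3, which had too few counts.

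Slit2 gave 4 of the 6 calls, in callosal PN (Cl 1), in 2 clusters of migrating interneurons (Cl 5 and Cl 23) and in Cl 13, Int 2. In Cl 13 it was at 219, 222, 285, 223 and 212 CPM in the saline embryos and 76.9, 84.3, 139, 111, 100.2 and 132 CPM in the EtOH embryos. The groups did not overlap. Slit2 fell there by 1.08 on the log2 scale (SE 0.126, edgeR adjusted p = 0.000115), with -1.54 in batch 1, -0.999 in batch 2 and -1.13 without S2-4, and the call held with each embryo left out in turn. In Cl 13, 0.196% of 8158 genes were called lower.

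In callosal PN, Cl 1, Slit2 was at 251, 267, 266, 271 and 176 CPM in the saline embryos and 131, 137, 156, 139, 160 and 163 CPM in the EtOH embryos. The groups did not overlap, with S2-4 nearest to the EtOH embryos. Slit2 fell by 0.78 on the log2 scale (SE 0.120, edgeR adjusted p = 0.0163), where 1.69% of genes were called lower, and the value was -1.05 in batch 1, -0.62 in batch 2 and -0.90 without S2-4. The call was lost without S1-1, at -0.77, with the replicate block, at -0.79, and in batch 2 alone.

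In migrating interneurons, Cl 5, Slit2 was at 182, 191, 269, 246 and 147 CPM in the saline embryos and 112, 110, 129, 121, 104 and 132 CPM in the EtOH embryos, again without overlap. It fell by 0.85 on the log2 scale (SE 0.140, edgeR adjusted p = 0.0281; 0.813% of genes called lower), by 0.86 in batch 1, by 0.87 in batch 2 and by 0.96 without S2-4. The call was lost without S1-1, S1-2, E1-2, E2-1, E2-2 or E2-3, at log2 fold changes of -0.88 to -0.82, with the replicate block, at -0.80, and in batch 2 alone. In Cl 23, the other migrating interneurons, it was at 152, 234, 200, 148 and 76.6 CPM in the saline embryos and 64.5, 40.2, 77.4, 37.2 and 27.4 CPM in the EtOH embryos other than E1-1, which had fewer than 10 nuclei there. S2-4 lay below the highest EtOH embryo. Slit2 fell by 1.69 in Cl 23 on the log2 scale (SE 0.325, edgeR adjusted p = 0.0314), on 43 UMIs in all EtOH embryos of the fit and 308 in the saline embryos, and by 1.87 without S2-4, where 0.153% of genes were called lower with all embryos. The call was lost without S1-1, S2-2, E1-2, E2-1, E2-3 or E2-4, at -1.76 to -1.53, and also with batch as a covariate, at -1.53, with limma voom and dam as a random block, at -1.62, with at least 30 nuclei per embryo, at -1.73, and in batch 2 alone, at -1.52. Slit2 in Cl 23 was also not among the pairs called with nuclei thinned to 2000 UMIs.

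The fitted log2 fold change of Slit2 was negative in 24 of the 25 clusters, the exception being cortical hem RGC at 0.09, and its median over clusters was -0.47. In Cl 22, at a fitted -0.07, the mean CPM of the groups was nearly the same (155 and 156). The called clusters stood at positions 18, 20, 21 and 25 in the order of Slit2 levels, and the RGC clusters where Slit2 was highest were not called, with 2639 ± 522 against 2278 ± 651 CPM in RGC 2 and 1136 ± 220 against 995 ± 170 CPM in RGC 1. Markers of other cells differed too in some of the called clusters. In Cl 5 the 4 striatal markers summed to 280 to 372 CPM in saline and 146 to 256 CPM in EtOH embryos, and the 8 radial glial markers to 175 to 248.6 and 145 to 253 CPM. In Cl 1 all 6 interneuron markers and all 8 radial glial markers had lower EtOH means, summing to 39.8 to 120 CPM against 26.7 to 53.8 and to 81.4 to 128 against 67.3 to 106. In Cl 13 the radial glial markers summed to 217 to 338 CPM in saline and 178 to 337 in EtOH embryos, and in Cl 23 to 224 to 345 and 202 to 294 CPM. The part of these cells in the Slit2 results was not tested.

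**Figure D4:**
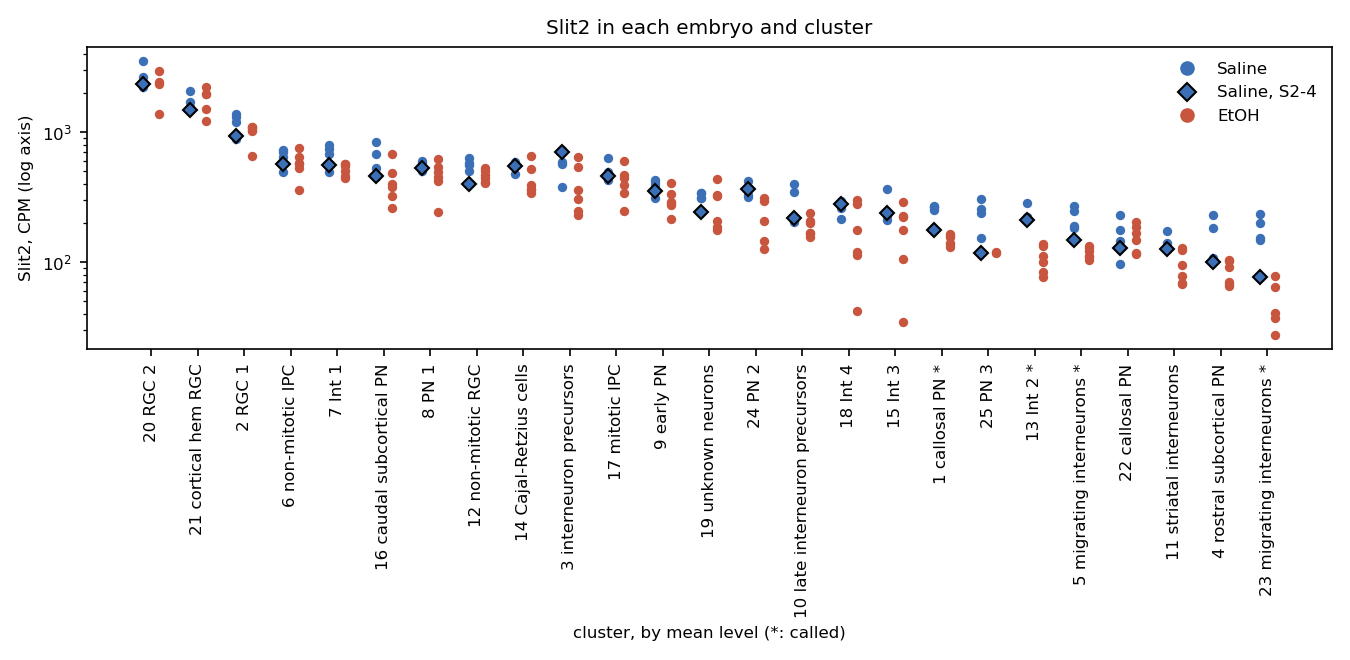
Slit2 CPM on a log axis in each embryo with at least 10 nuclei of a cluster, saline in blue, EtOH in red and saline embryo S2-4 as a black-edged diamond, with clusters in order of their mean and a star on called clusters. In Int 2 all 5 saline embryos (212 to 285 CPM) lie above all 6 EtOH embryos (76.9 to 139 CPM), and in RGC 2 the groups overlap.

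The remaining calls were of genes near the bottom of their range. Ntn1 in callosal PN, Cl 1, was at 9.60, 9.95, 12.2, 13.5 and 8.29 CPM in the saline embryos and 5.14, 1.97, 6.21, 4.80, 2.89 and 4.00 CPM in the EtOH embryos. The groups did not overlap, on 217 saline and 53 EtOH UMIs. The 6 interneuron markers summed in this cluster to 39.8 to 120 CPM in saline and 26.7 to 53.8 CPM in EtOH embryos. Ntn1 itself ran from 13.5 to 340 CPM over the interneuron clusters. The part of such cells in the Ntn1 result was not tested. Ntn1 fell by 1.32 there on the log2 scale (SE 0.241, edgeR adjusted p = 0.0163; 1.69% of genes in Cl 1 called lower) and by 1.41 without S2-4, and the call was lost without S1-1, at -1.35, and in batch 2 alone, at -1.27. In interneuron precursors, where it was highest, it was at 433 ± 18.5 CPM in saline and 420 ± 70.6 in EtOH embryos. Slit1 in early PN, its lowest cluster, was at 17.9, 23.9, 34.2, 28.7 and 19.3 CPM in the saline embryos and 5.63, 13.2, 15.5, 7.58, 11.01 and 7.34 CPM in the EtOH embryos, without overlap. Slit1 fell by 1.30 on the log2 scale (SE 0.257, edgeR adjusted p = 0.0242; 0.799% of genes in Cl 9 called lower) and by 1.39 without S2-4. The call was lost without S1-2, S2-1, S2-2, E1-1, E2-2, E2-3 or E2-4, at -1.32 to -1.18, and in batch 1 alone, at -1.15, and batch 2 alone, at -1.42. With nuclei thinned to 2000 UMIs, neither Slit1 in Cl 9 nor Ntn1 in Cl 1 was among the pairs called. In Cl 9 the interneuron markers summed to 45.4 to 120 CPM in saline and 6.3 to 47.8 CPM in EtOH embryos and the radial glial markers to 96.6 to 162 and 67.0 to 111 CPM, and their part in the Slit1 result was not tested.

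With TMM scaling, the filter on low counts and treatment as the only term, edgeR called no receptor in a single cluster on the unthinned counts of all embryos. Other settings on all embryos did. DESeq2 (0.949% of all tests called lower) called Dcc lower in 6 clusters, Robo1 and Robo2 in 3 each and Unc5c in 1. With limma voom and dam as a random block (0.611%) Dcc was called in 4 clusters and Robo1 and Robo2 in 3 each, with no filter (1.09%) Dcc and Robo1 in 3 each and Robo2 in 4, and with counts summed per dam (0.295%) Dcc and Robo1 in 3 each and Robo2 in 2. Thinned to 2000 UMIs (0.346%), Dcc and Robo1 were called in Cl 12 and Robo2 in Cl 5, Cl 12 and Cl 21. Batch as a covariate (0.188%) called Robo1 and Robo2 in Cl 21, RLE size factors (0.377%) Robo2 in Cl 12, and the replicate block (0.131%) Dcc in Cl 23 and Robo2 in Cl 12. Dcc had a negative log2 fold change in 24 of 25 clusters, RGC 2 being the exception, with a median of -0.43. In 17 clusters the unadjusted p was under 0.05, and 17.4% of all tests passed that mark in either direction. Without S2-4, Dcc was called lower in 12 clusters, among them RGC 1 (-0.56), interneuron precursors (-0.82), non-mitotic IPC (-0.53), early PN (-0.64) and callosal PN (-0.44). In these 5 clusters 3.95% to 5.86% of all genes were called lower without S2-4. In non-mitotic IPC, where Dcc was highest, it was at 18840, 21455, 25556, 23464 and 15572 CPM in the saline embryos and at 18207, 15254, 14761, 17181, 14783 and 17466 CPM in the EtOH embryos. S2-4 lay inside the EtOH range and S1-1 just above it. The log2 fold change there was -0.43 (SE 0.117, edgeR adjusted p = 0.0720).

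Robo1 had a negative log2 fold change in 23 of 25 clusters, 10 of them at an unadjusted p under 0.05, beside 17.4% of all tests in either direction. It was called in 6 clusters without S2-4. Robo2 was negative in 20 clusters and was called in 5 without S2-4. In the clusters of these calls 0.763% (Cl 21) to 5.86% (Cl 9) of all genes were then called lower. The smallest adjusted p of a receptor in a cluster was for Robo2 in non-mitotic RGC, Cl 12 (log2 fold change -0.61, edgeR adjusted p = 0.0504). Its groups overlapped there. It was called in Cl 12 without S2-4, at -0.69, but not with batch as a covariate, at -0.60. Robo1 and Robo2 both separated the groups in cortical hem RGC, Cl 21. Robo1 was there at 1501, 1215, 1586, 894 and 872 CPM in the saline embryos and 691, 802, 412, 601 and 637 CPM in the EtOH embryos other than E2-1, which had fewer than 10 nuclei (log2 fold change -0.94, edgeR adjusted p = 0.0632). Robo2 was at 1054, 1205, 1160, 805 and 838 CPM against 574, 798, 299, 428 and 314 CPM (-1.06, edgeR adjusted p = 0.0818). Both were called in Cl 21 without S2-4, at -1.04 for Robo1 and -1.12 for Robo2, and with batch as a covariate, at -0.95 and -1.12. In the same cluster the 4 cortical hem markers summed to 3543 to 4515 CPM in saline and 4610 to 5946 CPM in EtOH embryos, and the 6 PN markers to 381 to 556 and 206 to 436 CPM, and the part of either list was not tested. In caudal subcortical PN, Cl 16, its lowest cluster, Robo2 was at 620, 555, 697, 497 and 405 CPM against 67.8, 292, 151, 218, 185 and 308 CPM (-1.38, edgeR adjusted p = 0.0901), and it was called without S2-4, at -1.48, but not with batch as a covariate, at -1.36. With all embryos, DESeq2, limma voom with dam as a random block and counts summed per dam also called Robo2 in Cl 16. In all, saline embryos lay above every EtOH embryo in 10 of the 250 pairs and EtOH embryos above every saline embryo in 1 (Ntn1 in Cl 25), beside 0.62% and 0.805% of 519767 pairs over all genes with a UMI. Without S2-4 these were 29 and 1 of the 250 pairs, beside 1.44% and 3.49% over all genes. The Ntn1 pair in Cl 25 had 2 EtOH embryos and too few counts to be tested. Of the 519767 pairs over all genes, only 217253 were tested, so their shares also cover genes with few counts.

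Slit3, Unc5c, Unc5d and Robo3 gave no call by edgeR, with treatment as the only term and the filter on low counts, with or without S2-4. They were called under some alternatives. In batch 1 alone, Unc5c and Unc5d were each called lower in 3 clusters and Slit3 higher in 1. Of all tests there, 1.49% were called lower and 2.39% higher. With no filter (1.09% of all tests called lower), Robo3 was called lower in 2 clusters and Slit3 in 1. The replicate block (0.131%) called Unc5c in Cl 1, and counts summed per dam (0.295%) Unc5c in 2 clusters and Slit3 in 1. Without E2-3 (0.0484%), Slit3 was called lower in Cl 18. Slit3 was negative in 19 of 24 clusters and positive in 5, none with an unadjusted p under 0.05, and in caudal subcortical PN, where it was highest, it was at 4142 ± 231 CPM in saline and 4063 ± 606 in EtOH embryos. Unc5c was negative in 14 clusters and positive in 11. Unc5d was negative in 16 and positive in 9, and in early PN it was at 10153, 10064, 5695, 6272 and 9407 CPM in the saline embryos and 9210, 9028, 10688, 10160, 10331 and 9679 CPM in the EtOH embryos. The low values were those of S2-1 and S2-2, so the saline embryos of batch 2 spanned a wider range than all EtOH embryos. Robo3 could be tested in 5 clusters, with a log2 fold change of -1.01 to 0.75.

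**Figure D5:**
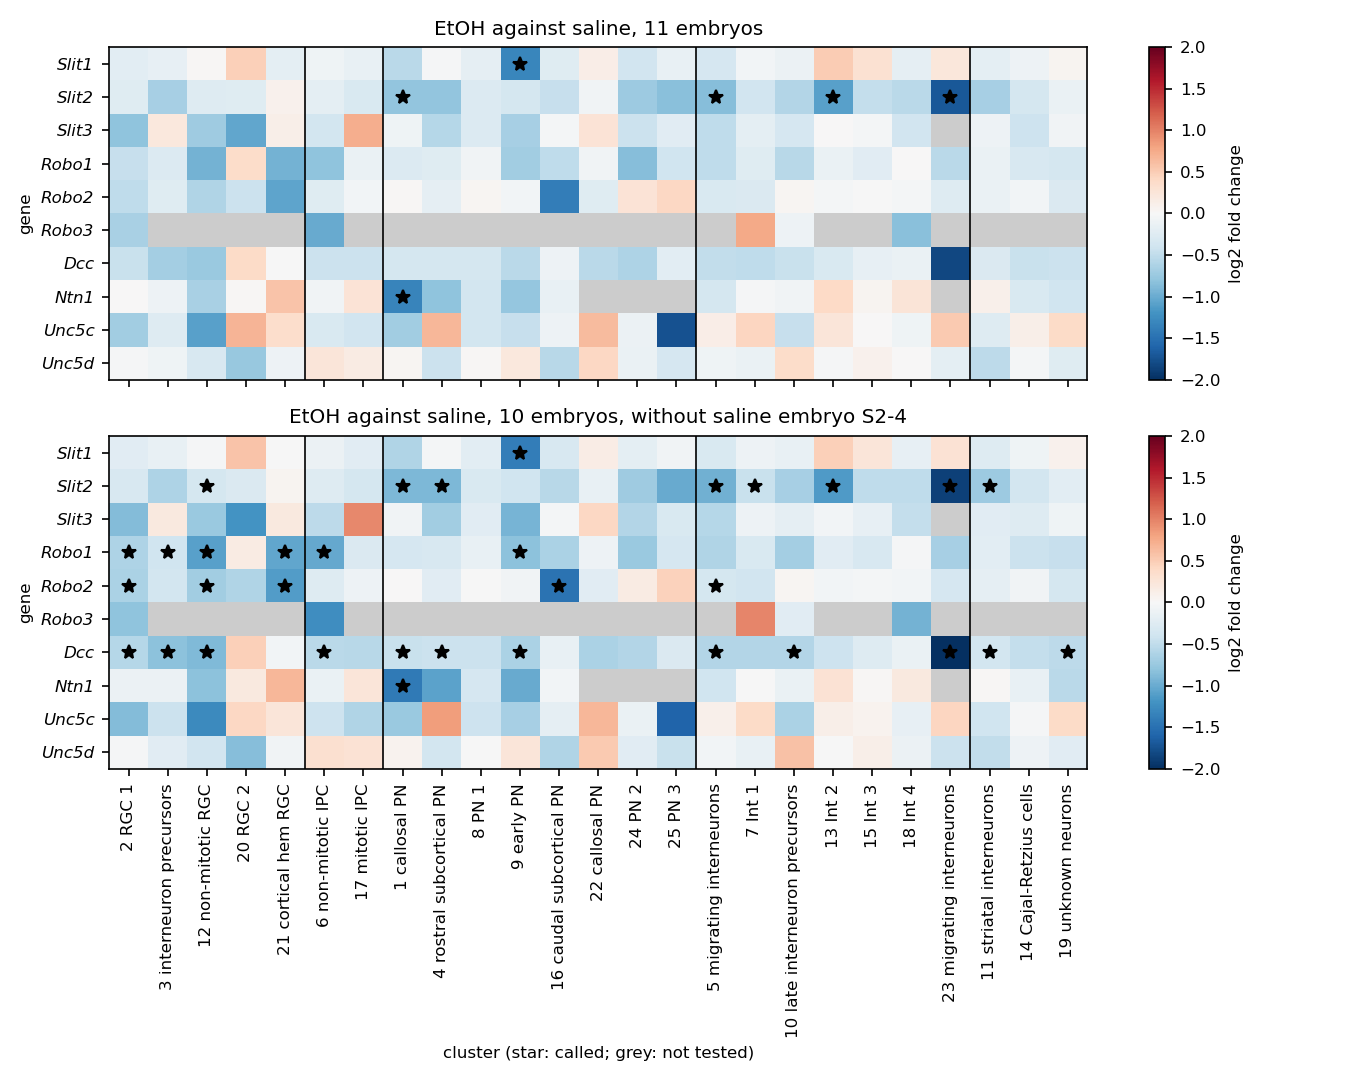
log2 fold change of EtOH against saline (blue lower, red higher) for each gene and cluster, with all 11 embryos above and without saline embryo S2-4 below. Stars mark called pairs, 6 above and 33 below, and grey marks pairs with too few counts.

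The treatment effect was compared between the batches, which hold different dams. Within a batch, all saline embryos share a dam and all EtOH embryos share another, so treatment cannot be told apart from dam. The batch by treatment interaction was not called for any of 201 pairs in 22 clusters (edgeR, adjusted p under 0.05), beside 0.0135% of all tests called. At an unadjusted p under 0.05 there were 26 of the 201 pairs and 6.66% of all tests. The smallest p was for Robo2 in rostral subcortical PN, with a log2 fold change of -0.99 in batch 1 and 0.36 in batch 2. Batch 1 alone gave 25 calls lower and 3 higher, beside 1.49% and 2.39% of all tests. Batch 2 alone gave 2 lower, those of Slit2 in Int 2 and Robo2 in cortical hem RGC, beside 0.0107% of all tests.

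The rest of the pathway was read against the same shares over all genes (0.35% called lower and 0.442% higher by edgeR, 0.949% and 1.65% by DESeq2). Among 14 further ligands and receptors, 1 of 260 pairs was called lower and 1 higher by edgeR, and 8 and 2 by DESeq2. Ntn4, a laminin-binding netrin, fell by 0.37 in migrating interneurons, Cl 5, on the log2 scale (SE 0.0806, 72.9 ± 4.30 CPM in saline and 58.1 ± 4.31 in EtOH embryos, edgeR adjusted p = 0.0344). Draxin, a secreted repellent that binds DCC and netrin-1, rose in caudal subcortical PN from 167 ± 23.02 to 231 ± 16.02 CPM (log2 fold change 0.42, edgeR adjusted p = 0.0427). Over all nuclei, Flrt3, which encodes a coreceptor of ROBO1, rose from 41.9 ± 10.4 to 55.6 ± 3.82 CPM (0.35, edgeR adjusted p = 0.0412), a call that was lost with batch as a covariate at the same log2 fold change. Of all genes, 8.55% were called higher over all nuclei, beside 1 of the 12 genes of this list tested there. Of 25 cofactors and signalling genes, such as the Srgap genes, Enah and Trio, 0 of 594 pairs were called in either direction by edgeR. At an unadjusted p under 0.05, 41 of these pairs were lower and 22 higher, and 17.4% of all tests passed that mark in either direction. DESeq2 called 2 pairs of this list lower and 1 higher. Over all nuclei only Sdc3, a syndecan and so a heparan sulphate carrier of the kind that Slit binds, was called of the 25, rising from 14.8 ± 1.71 to 20.2 ± 2.19 CPM (0.38, edgeR adjusted p = 0.0148). The medians of the log2 fold changes were -0.01 and -0.03 for the lists over clusters. Without S2-4, 10 pairs of the first list were called lower and 13 higher, and 12 and 3 of the second, beside 2.61% and 6.17% of all tests. Ntn4 (-0.39), Draxin (0.47), Flrt3 (0.46) and Sdc3 (0.43) were also called without S2-4.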

How the data were processed

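Nuclei from embryonic cortex were sequenced with a droplet 3′ kit. The deposited values are raw UMI counts per gene and nucleus, which the authors made with Cell Ranger and its default mm10 reference. The authors then filtered nuclei in Seurat by gene number and by mitochondrial, ribosomal and haemoglobin share, joined libraries with Harmony, clustered them and left out thalamic and non-neuronal clusters, and the cluster names used here are theirs. Use of strand and introns, and of a doublet caller, is not given in the sources used here, and no doublet caller was run. Ambient RNA was not estimated here, also not for genes in their lowest clusters. All 275 tables (25 clusters in 11 embryos, 50550 nuclei, 23513 genes) were used, with 0 columns left out, and 12 samples are in the labels. How counts were made affects levels between genes, since intronic reads favour long genes.

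Counts were summed per embryo and cluster, and embryos with at least 10 nuclei were kept (9 pairs of embryo and cluster were below this). EtOH was compared with saline in each cluster and over all nuclei with the quasi-likelihood test of edgeR 4.0.16 in R 4.3.3 (TMM scaling, filterByExpr, robust fit, treatment as the only term), with Benjamini-Hochberg adjustment over all genes of a fit. Calls needed a log2 fold change beyond 0.32 in either direction and an adjusted p under 0.05. Alternatives used DESeq2 1.42.0 and limma 3.58.1. Levels between clusters got no test. For shares of nuclei with a UMI, nuclei were thinned to 2000 UMIs, and 387 with fewer (0.766%) were left out. Intervals from UMI counts would cover counting error only. Genes were named by their membership of the list, and for likeness as the 3 genes with the highest correlation among those with at least 5 CPM in a cluster. Ntn3 was listed but is not analysed here. The members and lists were chosen with earlier results of these data known. Numbers of embryos shared by the groups did not pair them. Pearson correlations of the deviations of same-numbered embryos from their group means ran from -0.26 to 0.18.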

Additional observations from a re-analysis of the deposited data

Results flagged for a closer look

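Of 52 groups of 4 to 10 embryos checked for 1 embryo far from the rest (Dixon's criterion), 4 held one, and chance gives about 1 in 20. Unc5c over all nuclei was at 433 CPM in S2-1, far above the other saline embryos at 187 to 240 CPM. S2-1 also had the highest saline share of Int 1 (15.7%), where Unc5c was at 724 CPM. Its share of Cajal-Retzius cells, where Unc5c was highest, was 3.01%, inside the saline range of 1.82% to 5.45%. The part of the cell mix in this value was not tested. Slit1 in rostral subcortical PN was at 431 CPM in S2-2. Slit2 was at 176 CPM in S2-4 in callosal PN, the lowest saline embryo, and at 285 CPM in S2-1 in Int 2, the highest.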

How the results depend on the processing

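The 6 pairs of gene and cluster called lower (0.35% of all tests) became 21 with DESeq2 (0.949%), 24 with no filter on low counts (1.09%), 25 in batch 1 alone (1.49%, with 3 pairs called higher), 2 in batch 2 alone (0.0107%), 20 with counts summed per dam (0.295%) and 16 with limma voom and dam as a random block (0.611%), and ran from 2 (without S1-1, 0.0229%) to 33 (without S2-4, 2.61%) with 1 embryo left out. With the replicate block 7 pairs were called (0.131%), not among them Slit2 in callosal PN (-0.79) and in Cl 5 (-0.80). The 1 gene called lower over all nuclei became 2 with DESeq2, 3 in batch 1 alone, 0 in batch 2 alone, 0 summed per dam, 0 with the replicate block (Slit2 at -0.54), 0 thinned to 2000 UMIs, and 0 to 3 with 1 embryo left out (2 without E1-1). Over all nuclei, 4.74% of all genes were called lower with DESeq2, 6.23% in batch 1 alone, 0.00544% in batch 2 alone, 0.671% per dam, 0% with the replicate block and 2.07% thinned. No guidance gene was called higher over all nuclei under any alternative run. The log2 fold change over all nuclei changed sign for Slit3 with batch as a covariate (0.017), in batch 1 alone (0.059), per dam (0.019), thinned (0.026) and with 1 embryo left out (-0.21 to 0.10), for Robo2 in batch 2 alone (0.071), for Robo3 in batch 1 alone (0.12) and for Ntn1 with each cluster at the same weight (0.11). Unc5c changed sign with DESeq2 (-0.0087), RLE size factors (-0.0071), no filter (-0.0072), batch as a covariate (-0.052), batch 1 alone (-0.42), per dam (-0.082), limma voom (-0.0098) and with 1 embryo left out (-0.17 to 0.27). Unc5d did so with DESeq2 (-0.0017), RLE (-0.0017), no filter (-0.0016), batch 1 alone (-0.41), per dam (-0.10) and with 1 embryo left out (-0.095 to 0.14). The causes were not tested. The alternatives were tallied for each guidance gene over all nuclei and for the 6 called pairs only. In this tally 270 values kept direction and side of the threshold, 38 lost a call, 5 gained a call and 34 changed sign. The 6 pairs were already called and so could not gain a call. Pairs not called at first were left out, although more pairs were called under some alternatives, such as 33 without S2-4. The balance of 38 lost to 5 gained therefore depends on what was counted. The same-numbered embryos share only a number. Slit2 in Int 2 kept its call under all 22 alternatives. Depth limits Robo3, and Ntn1 in PN clusters.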
